A study of Mus musculus with 6 samples.

Results

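The 10 genes described here encode carriers that move amino acids across the plasma membrane. They were taken by gene symbol (Slc7a11, Slc3a2, Slc7a1, Slc7a3, Slc1a4, Slc1a5, Slc6a9, Slc38a1, Slc38a2 and Slc7a6), and all 10 were found among the 19642 gene symbols of the RNA-Seq table of mouse primary mesangial cells.

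Amino acids do not cross membranes unaided, and solute carriers are grouped by the amino acids they move. The SLC7 light chains work as partners of the heavy chain encoded by Slc3a2 (CD98), whereas the cationic carriers of the same family work alone. SLC1A4 and SLC1A5 exchange small neutral amino acids such as serine and alanine, and SLC1A5 also exchanges glutamine. SLC6A9 takes up glycine together with sodium, and SLC38A1 and SLC38A2 take up glutamine and other neutral amino acids together with sodium. Many of these genes are known targets of ATF4, the transcription factor of the integrated stress response and of amino acid shortage. In fibroblast-like cells, glycine and proline supply matters for collagen, in which both are abundant.

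Mesangial cells are contractile cells that hold up the capillary loops of the glomerulus, and TGF-β1 is the secreted factor that drives their scarring response. All cells were between passages 3 and 6 and were grown with 25.5 mM glucose and 20% foetal bovine serum. Of the 6 libraries, 3 were Control and 3 came after 72 h of TGF-β1 at 10 ng/ml, and the labels name no genetic change in either group. The labels do not say whether the replicates were separate cultures, so p-values measure the spread between these libraries, which may be technical. The values are FPKM, fragments per kilobase of transcript and per unit of sequencing depth, which already divides by length and depth.

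The libraries rested on 10.1 to 11.1 M mapped fragments, as recovered from the steps between the lowest FPKM values. Libraries of the same group correlated at 0.876 to 0.940 (Pearson's r across tested rows), and those of different groups at 0.818 to 0.853, where genes are not independent replicates. Of the markers of mesangial cells and pericytes, 2 of 5 tested rows rose (Acta2 and Mcam) and 1 fell (Pdgfrb, from 37.5 to 29.2 FPKM). Their sum over 11 rows was 977 to 1160 FPKM in Control and, mostly through Acta2, 3700 to 4390 FPKM after treatment. Itga8 and Des stayed under 1 FPKM in every library, so these 2 defining markers were near 0. Of the podocyte markers, 4 of 4 tested rows were lower with TGF-β1, and Nphs1 stayed under 1 FPKM. Summed FPKM was lower with TGF-β1 for tubular markers (11.1 to 14.8 against 1.93 to 2.35, in Control mostly Aqp1, the 1 row tested, which fell) and macrophage markers (87.0 to 114 against 9.03 to 11.3, mostly Cd14, with 2 of 3 tested rows lower). Tubular Cubn, from 0.636 to 1.28 FPKM, and Slc12a1, from 0.0615 to 0.377 FPKM, lay under the filter on low values and were called up in the fit without it. Tubular Lrp2, from 1.43 to 0.230 FPKM, was called down in that fit (log2 change -0.97, limma adjusted p 0.00369). Of the mesangial and pericyte markers under the filter, Cspg4 (0.0735 to 1.21 FPKM), Rgs5 (0.0864 to 0.250) and Angpt1 (0.489 to 1.25) were called up there. Itga8, Des and Thy1 were not called. All 7 endothelial markers stayed under 1 FPKM. The leukocyte marker Ptprc had a mean of 0.0289 FPKM with TGF-β1 and was listed at 0 in the Control libraries. The part of other cells in the results below was not tested, and in bulk RNA fewer cells of a type and less RNA per cell cannot be told apart.

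Transcripts of 6 of the 10 carriers rose with TGF-β1 and none fell past the threshold. The test was limma on log2(FPKM + 1) over 11898 rows with a mean of at least 1 FPKM, and an adjusted p under 0.05 was called a change. The response of these cells was broad, since 24.5% of all tested rows rose and 48.1% changed in either direction. Slc6a9 and Slc1a4 rose more than 4-fold in mean FPKM, Slc7a1 and Slc38a1 more than doubled, and Slc1a5 and Slc3a2 rose by smaller amounts. Slc38a2, Slc7a6, Slc7a3 and Slc7a11 were not called. At an unadjusted p under 0.05, 1 carrier (Slc7a11) was lower. Groups did not overlap for 7 of the 10, with TGF-β1 above in 6 (29.9% of all tested rows) and below in 1, against 59.4% of all tested rows apart in either direction. The median change of the 10 was 0.55 on the log2 scale, against -0.02 over all tested rows. A log2 change of at least 1 was reached by 3 of the 10, Slc6a9, Slc1a4 and Slc7a1, against 6.56% of all tested rows. Slc38a1, at 0.99, fell just short. Its change was 1.06 and 1.12 when 0.5 or 0.1 was added to FPKM instead of 1.

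**Figure D1:**
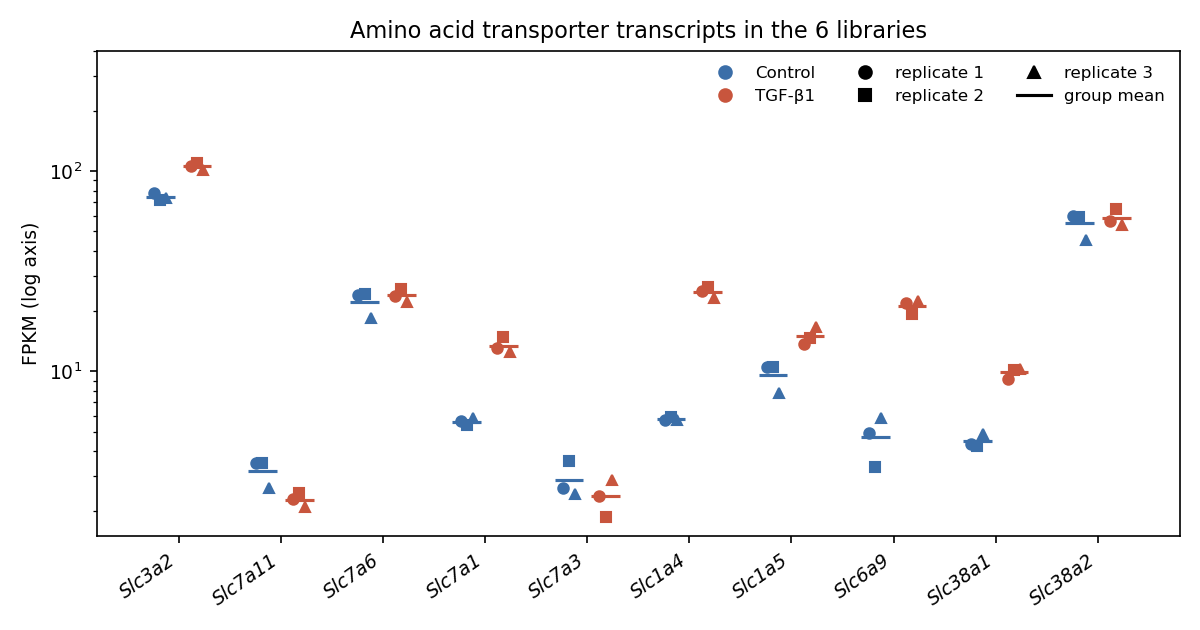
FPKM of the 10 carriers (log axis) in the 3 Control (blue) and 3 TGF-β1 (red) libraries, with a symbol per replicate number and a line at each group mean. The red points of Slc3a2, Slc7a1, Slc1a4, Slc1a5, Slc6a9 and Slc38a1 all lie above the blue ones, those of Slc7a11 all lie below, and the other 3 genes overlap.

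The exchangers of small neutral amino acids were examined first. Slc1a4 (ASCT1, a serine and alanine exchanger; mm9 chromosome 11, 20202183 to 20232716, minus strand) was at 5.69, 5.92 and 5.68 FPKM in Control replicates 1 to 3 and at 25.3, 26.4 and 23.3 FPKM in TGF-β1 replicates 1 to 3. The groups were far apart compared with the narrow spread of the Control libraries. Its mean rose 4.34-fold from 5.77 ± 0.133 FPKM in Control (SD, n = 3), with an SD of 1.58 FPKM among the treated libraries, and limma gave a log2 change of 1.94 with an SE of 0.0796 (adjusted p 1.98e-05). It had the smallest p-value of the 10.

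Slc1a5 (ASCT2, a glutamine exchanger; chromosome 7, 17366695 to 17383623, plus strand) was at 10.5, 10.5 and 7.82 FPKM in Control and at 13.8, 14.8 and 16.7 FPKM with TGF-β1. Control replicate 3 was the lowest library, and the groups did not overlap. The mean rose 1.57-fold, from 9.60 ± 1.53 to 15.1 ± 1.49 FPKM, and limma gave a log2 change of 0.61 with an SE of 0.136 (adjusted p 0.0116). Within replicates 1 and 3 alone the log2 change was 0.68 and the call was lost (limma adjusted p 0.0559, the highest of 0.0108 to 0.0559 over 17 alternatives).

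In Control, Slc1a5 was the more abundant of the pair in every library, and with TGF-β1 Slc1a4 was. The log2 ratio of Slc1a4 to Slc1a5, on FPKM + 1, went from -0.64 (range -0.78 to -0.40) to 0.70 (range 0.46 to 0.83), a difference of 1.33. The exact permutation test, two-sided, gave p = 0.1, which is the smallest value that 3 against 3 allows. All 4 pairs compared had this p, so adjustment over them left it unchanged and adds no support.

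The glycine carrier Slc6a9 (GlyT1; chromosome 4, 117507111 to 117547803, plus strand) was at 4.90, 3.35 and 5.83 FPKM in Control and at 21.9, 19.3 and 22.4 FPKM with TGF-β1. The replicate 2 libraries were the lowest of both groups, but the lowest TGF-β1 library was well above the highest Control library. The mean rose 4.52-fold, from 4.69 ± 1.26 to 21.2 ± 1.66 FPKM, and limma gave a log2 change of 1.99 with an SE of 0.175 (adjusted p 2.85e-04). The gene overlaps Ccdc24, B4galt2 and Gm17114 on the opposite strand, and whether the FPKM estimate used the strand is not stated, so its level is uncertain.

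Sodium-coupled neutral carriers were represented by a pair of neighbouring genes on the minus strand of chromosome 15, 44.5 kb apart. Slc38a1 (SNAT1, a glutamine carrier; 96401849 to 96473344) was at 4.36, 4.24 and 4.88 FPKM in Control and at 9.17, 10.2 and 10.3 FPKM with TGF-β1. Every treated library was above every Control library, and the mean rose 2.20-fold, from 4.50 ± 0.341 to 9.89 ± 0.623 FPKM (log2 change 0.99, SE 0.0921, limma adjusted p 3.50e-04). Slc38a2 (SNAT2, the carrier known for its induction in amino acid shortage; 96517825 to 96530129) was at 60.0, 59.0 and 45.6 FPKM in Control and at 56.5, 64.5 and 53.7 FPKM with TGF-β1.

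The groups of Slc38a2 overlapped, its log2 change was 0.09 with a 95% interval of -0.23 to 0.42, and it was not called (limma adjusted p 0.601). Slc38a2 remained the more abundant of the pair, with 58.2 against 9.89 FPKM after treatment. The log2 ratio of Slc38a1 to Slc38a2 went from -3.34 (range -3.52 to -2.98) to -2.44 (range -2.55 to -2.28), a difference of 0.90 (exact permutation p = 0.1, also after adjustment).

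**Figure D2:**
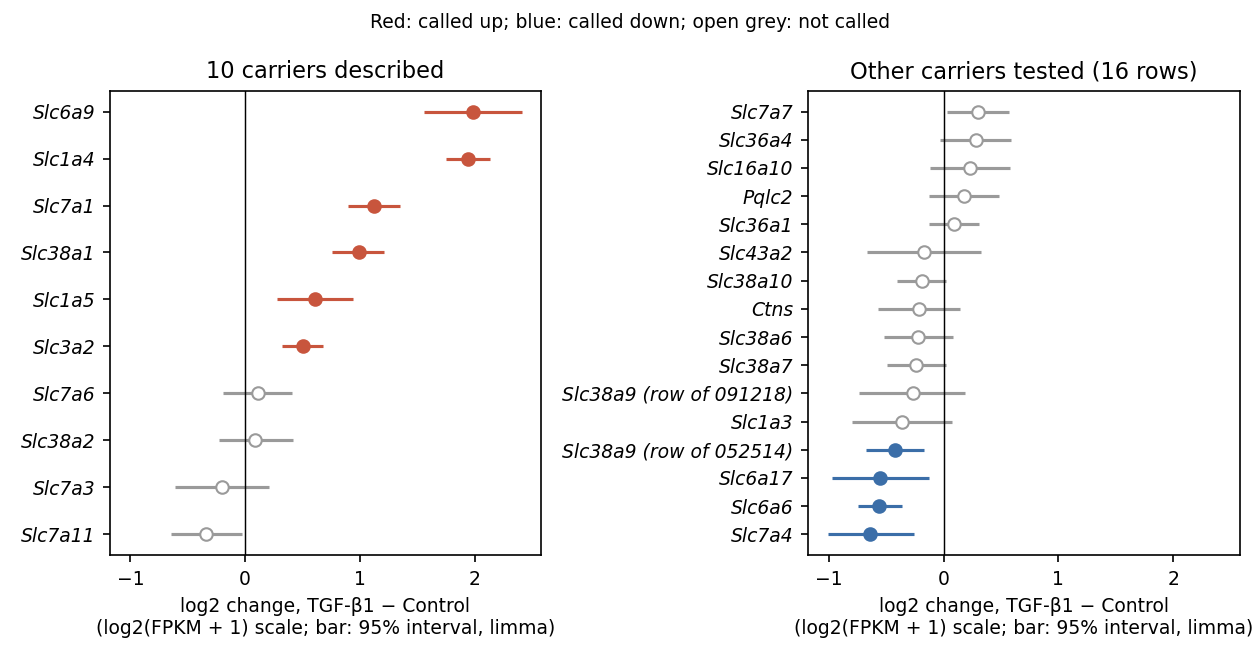
Log2 change (TGF-β1 minus Control, log2(FPKM + 1) scale) with its 95% interval from limma, for the 10 carriers on the left and the 16 tested rows of other amino acid carriers on the right. Filled points were called (red up, blue down) and open grey points were not; 6 carriers on the left were called up, and 4 rows on the right were called down.

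Both cationic carriers among the 10, which import arginine and lysine, were measured. Slc7a2, a related cationic carrier looked at after its values were seen, lay under the filter on low values. Its mean was 0.236 FPKM in Control and 0.450 FPKM with TGF-β1, and the groups did not overlap. In the fit without the filter it was not called (log2 change 0.23, limma adjusted p 0.0857). Slc7a1 (CAT1, the widely used cationic carrier; chromosome 5, 149138986 to 149211480, minus strand) was at 5.63, 5.37 and 5.85 FPKM in Control and at 13.0, 14.8 and 12.4 FPKM with TGF-β1. Its mean rose 2.39-fold, from 5.62 ± 0.240 to 13.4 ± 1.25 FPKM, more than the spread of either group (log2 change 1.12, SE 0.0933, limma adjusted p 2.31e-04).

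Slc7a3 (CAT3, a cationic carrier best known from the brain; chromosome X, 98274549 to 98281359, minus strand) was at 2.62, 3.57 and 2.45 FPKM in Control and at 2.38, 1.87 and 2.88 FPKM with TGF-β1. The groups overlapped and it was not called (log2 change -0.20, 95% interval -0.61 to 0.21, limma adjusted p 0.361). The row of Slc7a3 carries the identifier of a transcript with a retained intron and rested on only about 47.6 to 99.4 fragments per library, the fewest of the 10, so its level is the least certain. The log2 ratio of Slc7a1 to Slc7a3 went from 0.78 (range 0.48 to 0.99) to 2.10 (range 1.79 to 2.47), a difference of 1.32 (exact permutation p = 0.1, also after adjustment).

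**Figure D3:**
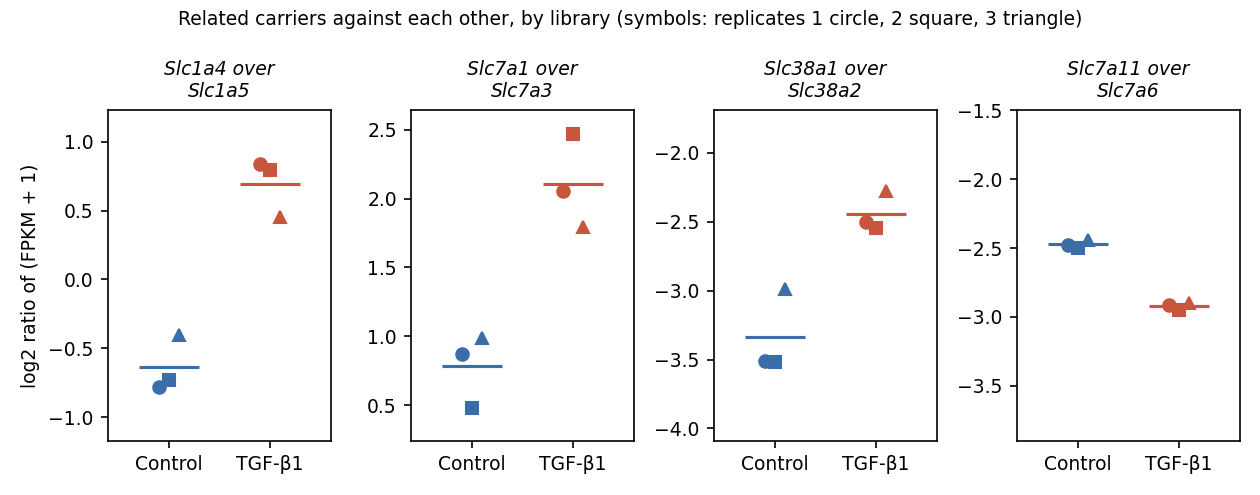
Log2 ratio of (FPKM + 1) for 4 pairs of related carriers in each Control (blue) and TGF-β1 (red) library, with a line at each group mean; every panel spans the same height. The groups are apart in all 4 pairs, upwards for Slc1a4 over Slc1a5, Slc7a1 over Slc7a3 and Slc38a1 over Slc38a2, and downwards for Slc7a11 over Slc7a6. Each pair holds a carrier whose own groups were apart, as were those of 59.4% of all tested rows.

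Slc3a2 (CD98 heavy chain; chromosome 19, 8781372 to 8797859, minus strand) was the most abundant of the 10 in both groups. It was at 77.9, 71.7 and 73.9 FPKM in Control and at 106.4, 110.0 and 101.2 FPKM with TGF-β1, and the groups did not overlap. Its mean rose 1.42-fold, from 74.5 ± 3.16 to 105.9 ± 4.39 FPKM (log2 change 0.50, SE 0.0743, limma adjusted p 0.00234).

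None of its measured light chains was called. Slc7a6 (y+LAT2, an exchanger of cationic for neutral amino acids; chromosome 8, 108692775 to 108722604, plus strand) was at 24.0, 24.2 and 18.6 FPKM in Control and at 23.8, 25.8 and 22.2 FPKM with TGF-β1. The groups overlapped, and the log2 change was 0.11 with a 95% interval of -0.19 to 0.41 (limma adjusted p 0.504).

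Slc7a11 (xCT, which imports cystine for glutathione in exchange for glutamate; chromosome 3, 50168858 to 50247535, minus strand) was at 3.48, 3.47 and 2.60 FPKM in Control and at 2.29, 2.46 and 2.11 FPKM with TGF-β1. It was the only one of the 10 with every treated library below every Control library, which held for 29.5% of all tested rows, and the gap between 2.60 and 2.46 FPKM was small. The mean went from 3.18 ± 0.505 to 2.29 ± 0.174 FPKM, a ratio of 0.719. Its log2 change of -0.34 (SE 0.127, 95% interval -0.65 to -0.03) was not called over all rows (limma adjusted p 0.0679). It was called without Control replicate 3 (log2 change -0.45, limma adjusted p 0.0212) and under 2 rescalings, to the same upper quartile (-0.39, limma adjusted p 0.0472) and to a common sum of protein-coding rows (-0.48, limma adjusted p 0.0190, where the median of all rows was -0.19). Its adjusted p was 0.0190 to 0.178 over 16 alternatives in limma. Scaling every library to one sum of all rows gave 0.94 for Slc7a11, where the median of all rows was 1.42.

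Set against each other, the 2 light chains varied little between replicates. The log2 ratio of Slc7a11 to Slc7a6 was -2.47 in Control (range -2.50 to -2.44) and -2.92 with TGF-β1 (range -2.95 to -2.90). The difference of -0.45 had an exact permutation p of 0.1, also after adjustment. Of the other light chains, Slc7a7 (y+LAT1) was at 7.79 ± 0.314 FPKM in Control and at 9.88 ± 1.31 FPKM with TGF-β1 and was not called (log2 change 0.30, limma adjusted p 0.0645); without TGF-β1 replicate 3 it was called (0.40, limma adjusted p 0.0290, within a range of 0.0290 to 0.378 over 17 alternatives). Slc7a10 was listed at 0 in all libraries except TGF-β1 replicate 1, at 0.287 FPKM. Of the 3 light chain rows tested by limma, 0 were called, where 48.1% of all tested rows were. At an unadjusted p under 0.05 there was 1 up and 1 down, against 6569 of all 11898 tested rows in either direction. The 3 rows are too few to be set apart from those shares. Slc7a5 and Slc7a8 were not analysed here.

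Among these 4 light chains, Slc7a11 made up 9.81, 9.73 and 9.09% of the summed FPKM in Control and 6.27, 6.27 and 6.44% with TGF-β1. The ratio of Slc3a2 to that sum was 2.20, 2.01 and 2.58 in the Control libraries, and TGF-β1 libraries had 2.91, 2.80 and 3.09. Both measures separated the groups, as Slc7a11 and Slc3a2 did on their own, but they leave out the light chains that were not analysed.

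The promoters of the carriers were searched for the core of the C/EBP-ATF response element, the DNA motif through which ATF4 is known to act, because the carriers that rose and those that did not include known ATF4 targets. RefSeq promoters of GRCm38.p6 (250 bases before to 50 after a start site) were matched for 7 of the 10 genes, in 11 windows. Slc7a3, Slc1a5 and Slc38a1 had none. The core, TGATGNAA on either strand, was found in Slc7a11, with 2 copies, and in Slc1a4, with 1. It occurs in 3.97% of 32851 promoter windows and in a window of 4.51% of 27025 genes. Copies numbering 2 or more were in 0.0700% of the windows. The stretches that hold the copies are shown because one gene rose and the other did not; they run 5′ to 3′ on the strand of the gene, at chr3:50443639-50443698 (minus strand) and chr11:20332704-20332763 (minus strand), with the matches in capitals.
Slc7a11: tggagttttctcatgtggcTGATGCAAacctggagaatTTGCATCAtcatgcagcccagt
Slc1a4: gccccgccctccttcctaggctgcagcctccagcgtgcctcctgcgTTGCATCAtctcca

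In Slc7a11 the copies lie upstream of the start site on opposite strands, and in Slc1a4 the copy spans the start site. Slc1a4, with 1 copy, rose 4.34-fold, while Slc7a11, with 2 copies, had a ratio of 0.719 and was not called. Slc6a9, Slc7a1 and Slc3a2, which rose, had no match in the windows searched, nor had Slc38a2 and Slc7a6. The core of the antioxidant response element, TGACNNNGC on either strand, was in windows of Slc6a9, Slc7a1, Slc38a2 and Slc7a6. It was in 12.4% of all windows and in a window of 14% of 27025 genes. The windows of Slc7a6 overlap and hold the same site. A match describes the letters only, and its absence says nothing of binding elsewhere.

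The order of levels changed with treatment. In Control the FPKM order was Slc3a2, Slc38a2, Slc7a6 and Slc1a5, each apart from the next, followed by Slc1a4, Slc7a1, Slc6a9 and Slc38a1, whose neighbours overlapped, and by Slc7a11 and Slc7a3, which overlapped each other. With TGF-β1 Slc3a2 and Slc38a2 were still the highest. Slc1a4 moved from the fifth to the third place and overlapped Slc7a6, which in turn overlapped Slc6a9. Slc1a5 and Slc7a1 came next and overlapped, Slc38a1 stood alone, and Slc7a3 and Slc7a11 were again the lowest and overlapped.

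Other amino acid carriers were taken from a list of 46 symbols of the same families and of lysosomal carriers. Of these, 37 symbols were measured, in 38 rows, and 16 rows had a mean high enough to be tested. Among the 16, limma called none up (1 at an unadjusted p under 0.05, Slc7a7), where 24.5% of all tested rows rose. It called 4 down, or 25%, which was near the 23.6% of all tested rows that fell. The median log2 change of the 16 was -0.22. Slc7a4 (an orphan relative of the cationic carriers) fell most, by 0.64 on the log2 scale, from 1.44 ± 0.363 to 0.564 ± 0.115 FPKM (limma adjusted p 0.0163), a direction that held in every scaling except that to one sum of all rows, which gave 0.33. The other 3 were chosen after their values were seen. Slc6a6 (the taurine carrier) fell from 56.3 ± 2.07 to 38.0 ± 2.61 FPKM (limma adjusted p 0.00211), Slc6a17 (a carrier of synaptic vesicles) from 5.69 ± 1.27 to 3.55 ± 0.659 FPKM (limma adjusted p 0.0412), and 1 of 2 rows of Slc38a9 (the arginine sensor of the lysosome) from 3.23 ± 0.172 to 2.16 ± 0.237 FPKM (limma adjusted p 0.0182). The count of falling rows was 2 to 7 over 17 alternatives. It was 2 without Control replicate 2, within replicates 1 and 3 alone and at a mean FPKM of at least 3, and 7 when protein-coding rows were scaled to one sum. Scaling to one sum of all rows called 0 of them, with 0 also at an unadjusted p under 0.05 in limma.

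**Figure D4:**
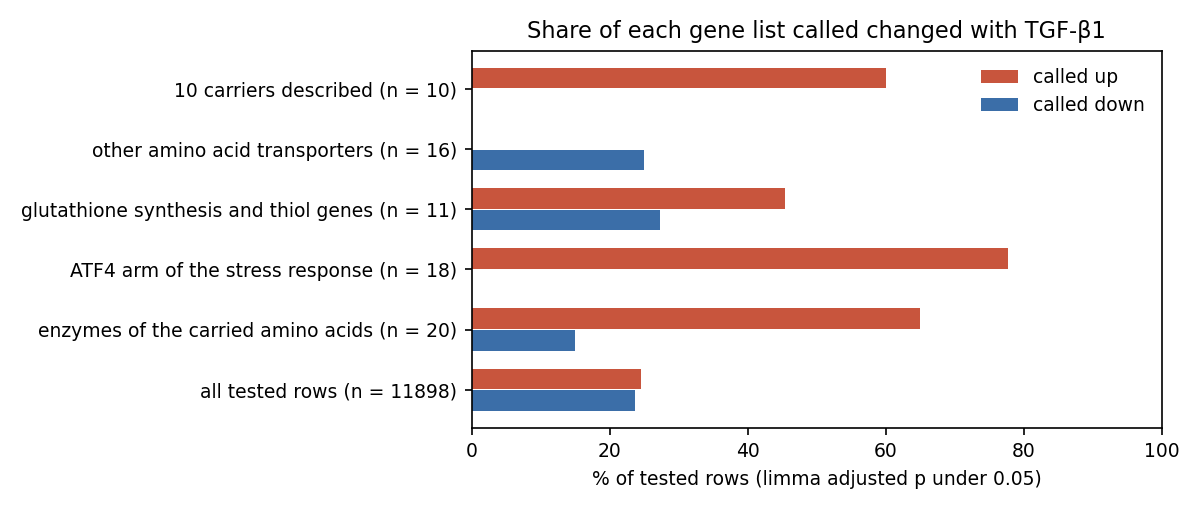
Share of the tested rows of each gene list that were called up (red) or down (blue) with TGF-β1, with the number of tested rows beside each name and all 11898 tested rows at the bottom. Among the 10 carriers 6 were called up and 0 down. Among the other carriers 0 were called up and 4 down, a share near the 23.6% of all tested rows that fell.

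Genes that work with the carriers were counted in the same test. Their lists were chosen with earlier results of these data known, so the counts of these lists are descriptive only. Of 18 genes of the ATF4 arm of the stress response, 14 rose and none fell (0 also at an unadjusted p under 0.05 in limma), with a median log2 change of 1.14, where 24.5% of all tested rows rose, 23.6% fell and the median was -0.02. Trib3, a pseudokinase induced by ATF4, had the largest change, 3.83 on the log2 scale, with means of 0.830 ± 0.0711 and 25.2 ± 4.38 FPKM (limma adjusted p 1.25e-05). Atf4 itself, singled out after its values were seen, was at 119.7, 100.6 and 171.0 FPKM in Control and at 383.3, 356.6 and 369.0 FPKM with TGF-β1, a log2 change of 1.53 (limma adjusted p 0.00118).

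Of 20 tested enzymes that make or use the carried amino acids, 13 rose and 3 fell, with a median log2 change of 0.73, against 24.5% up, 23.6% down and a median of -0.02 over all tested rows. Arg1, which splits the arginine that cationic carriers import, rose by 3.23 on the log2 scale, from 1.45 ± 0.386 to 21.8 ± 1.59 FPKM (limma adjusted p 2.36e-05). Glul, which makes glutamine from glutamate, fell by 1.85 on the log2 scale, from 62.5 ± 4.09 to 16.7 ± 2.39 FPKM (limma adjusted p 9.90e-05).

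Of 11 tested genes that make or break down glutathione or belong to thiol chemistry, 5 rose and 3 fell, with a median log2 change of 0.35. The share that fell was near the 23.6% of all tested rows, and 24.5% of all tested rows rose. Chac1, which degrades glutathione and is also in the ATF4 list, rose by 2.77 on the log2 scale, from 2.06 ± 1.02 to 19.1 ± 0.491 FPKM (limma adjusted p 2.57e-04). Cbs, which makes cystathionine from homocysteine, fell by 2.72 on the log2 scale, from 9.05 ± 1.65 to 0.519 ± 0.191 FPKM (limma adjusted p 6.65e-05). Cth, which uses cystathionine and was singled out after its values were seen, rose by 2.19 on the log2 scale. Its means were 0.619 ± 0.239 FPKM in Control and 6.38 ± 0.714 FPKM with TGF-β1 (limma adjusted p 1.08e-04).

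**Figure D5:**
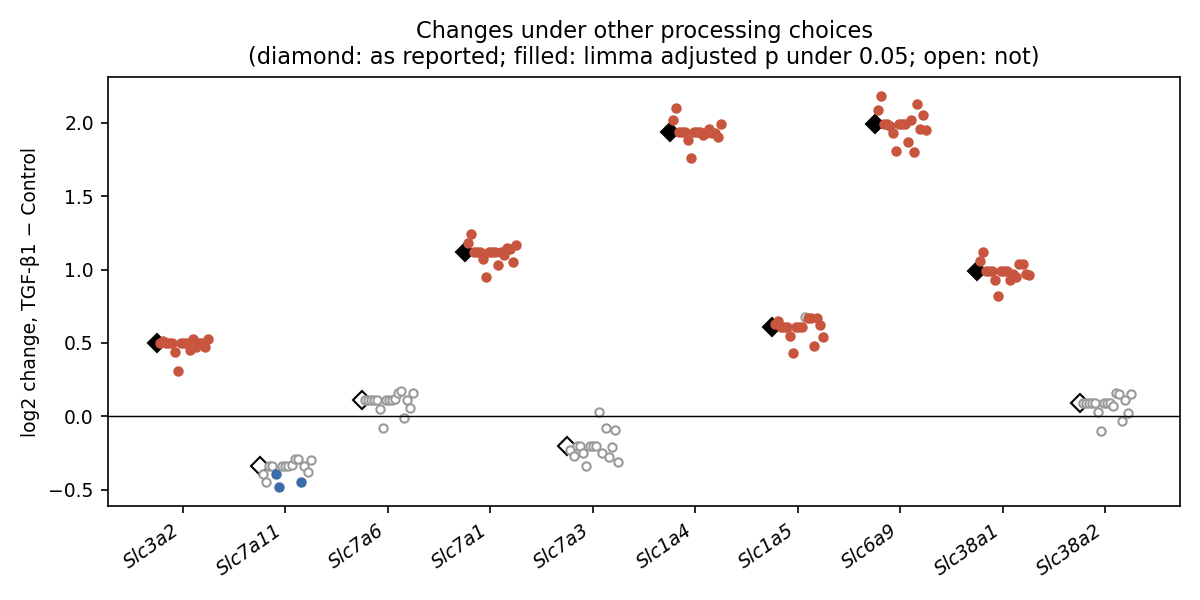
Log2 change of each carrier as reported (diamond) and under up to 17 other processing choices (circles), filled where the limma adjusted p was under 0.05; the scaling to one sum of all rows is left out. Slc3a2, Slc7a1, Slc1a4, Slc6a9 and Slc38a1 are filled throughout, Slc1a5 is open once, Slc7a11 is filled in 3 cases, and Slc7a6, Slc7a3 and Slc38a2 are open throughout.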

How the data were processed

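RNA of 3 Control and 3 TGF-β1 libraries of mouse mesangial cells was analysed. After removing reads of low quality, the authors aligned with TopHat to mm9 and obtained FPKM from Cufflinks; their processing notes give TopHat2 2.0.11. The deposited FPKM values are relative to transcript length and mapped fragments and were used as they stood; the authors' count test was not repeated, since the values are not counts. Each of the 19730 rows names 1 transcript. In single-transcript genes 99.5 to 99.9% of low values were whole numbers of fragments (within 0.15, assuming fragments of 200 nt), but in genes with over 3 transcripts only 45.5 to 48.7% were, against 30% from the tolerance alone, so fragment numbers are approximate for Slc7a3, Slc1a5 and Slc6a9, and carriers with 2 or 3 transcripts were not checked.

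Rows whose FPKM averaged 1 or more were tested with limma 3.58.1 in R 4.3.3 (mean-variance trend, log2(FPKM + 1), two-sided, Benjamini-Hochberg), a scale that understates changes of low genes. All 10 carriers passed this filter. Pairs were compared with exact permutation tests (scipy 1.17.1). Gene positions are 1-based on mm9 (GENCODE M1). The limma fit was tested on simulated data with independent rows, far fewer of them changed than were called here. That test does not bear on the calls above. The carriers and gene lists were chosen with earlier results of these data known. Named genes were all carriers and light chains, the largest called increase and decrease of each other list, and other carriers called with a log2 change of at least 1. Alternatives were other pseudocounts, filters, scalings, variance models, batch terms and left-out libraries.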

Additional observations from a re-analysis of the deposited data

How the results depend on the processing

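The counts of called carriers, other carriers and all rows were recomputed under 18 alternatives, 17 named genes under those in which they were tested, and the 4 pairs under 8. Counts of the ATF4, enzyme and glutathione lists, genes named outside the rule, light-chain shares, non-overlap counts and promoter matches were not recomputed. Leaving aside the scaling to one sum of all rows, 14 of the 17 named genes kept their side of the threshold wherever they were tested; Slc7a11, Slc1a5 and Slc7a7 did not, as given above. The changes of Slc7a3 (-0.34 to 0.03), Slc38a2 (-0.10 to 0.16) and Slc7a6 (-0.08 to 0.17) spanned 0 and were never called. The number of carriers that rose was 5 to 6 over the other 17 alternatives, with 6 in each of the fits that left out 1 library and 5 within replicates 1 and 3. The number that fell was 0 to 1 over the fits that left out 1 library, and 1 under upper-quartile scaling and under a common sum of protein-coding rows, each time Slc7a11. The number of all rows called was 4195 to 6026, against 5721. Among the other amino acid carriers, 4 were called, all of them lower. That number was 2 at a mean FPKM of at least 3, 2 within replicates 1 and 3, 7 under a common sum of protein-coding rows and 2 to 4 over the fits that left out 1 library. The number of these that rose was 1 without the filter (Slc38a4) and 0 to 1 over the fits that left out 1 library (Slc7a7). At a mean FPKM of at least 3, Slc7a11 and Slc7a3 were not tested.

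With one sum of all rows limma called 0 carriers, 0 other carriers and 0 of all rows (0, 0 and 9 at an unadjusted p under 0.05), and it gave Slc7a4 a change of 0.33. In that scaling 1 short RNA, Mir5105, held 87.1 to 100% of the sum in 4 libraries, so that 1 row set the scale. The log2 ratios of the 4 pairs kept their direction in all 8 alternatives, from 1.26 to 1.45 for Slc1a4/Slc1a5, 1.14 to 1.51 for Slc7a1/Slc7a3, 0.81 to 1.07 for Slc38a1/Slc38a2 and -0.56 to -0.43 for Slc7a11/Slc7a6; with 1 library left out the smallest possible exact p was 0.2.

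Replicate numbers are shared between the groups in the labels. Deviations from the group means correlated across genes at 0.0921, 0.232 and 0.0853 for libraries of the same number. For different numbers the values were -0.194 to 0.117, the highest between Control replicate 1 and TGF-β1 replicate 3. Mir5105 was the largest row in replicates 1 and 3 of both groups, but not in either replicate 2 library. The labels do not say whether libraries of one number were handled together. With the replicate block, 6 carriers, 3 other carriers and 5391 of all rows were called. With a batch term for replicate 2 alone, 6 carriers, 3 other carriers and 5947 of all rows were called.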

Other observations

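The spread among Control libraries was uneven across the carriers, a pattern looked for only once the values had been seen. In Control replicate 3, 5 of the 10 carriers were at or below 0.8 times the mean of Control replicates 1 and 2: Slc1a5 (0.747), Slc7a11 (0.748), Slc38a2 (0.766), Slc7a6 (0.771) and Slc7a3 (0.793). This held for 16.3% of all tested rows, whose median ratio was 1. Slc6a9 went the other way, with a ratio of 1.41, and Slc1a4, Slc3a2, Slc7a1 and Slc38a1 were between 0.979 and 1.14. Slc7a3 was at 2.45 FPKM in Control replicate 3, close to 2.62 FPKM in Control replicate 1. Its ratio reflected a high Control replicate 2, at 3.57 FPKM. Apart from Slc1a5, the carriers at or below 0.8 in Control replicate 3 were those that were not called. Without this library Slc38a2 (log2 change -0.03), Slc7a6 (-0.01) and Slc7a3 (-0.28) were still not called by limma. Slc7a11 was then called down (-0.45).

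Slc38a4, a relative of Slc38a1 and Slc38a2 that was also picked after its values were seen, lay under the filter on low values. It was at 0.0528, 0.106 and 0.102 FPKM in Control and at 0.375, 0.379 and 0.253 FPKM with TGF-β1, and it was called up in the fit without the filter (log2 change 0.30, limma adjusted p 0.0122). Slc1a6, a glutamate carrier looked at in the same way, was at 1.05, 1.10 and 0.736 FPKM in Control and at 0.0482 FPKM in TGF-β1 replicate 1, and it was listed at 0 in the other 2 TGF-β1 libraries. Without the filter it was called down (log2 change -0.95, limma adjusted p 7.99e-04).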
